A study of Mus musculus with 18 samples.

Results

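The H3K4me3 landscape of liver was compared between 1 library from a wild-type mouse (WT 2) and 1 library from a mouse lacking Ctcf in hepatocytes (KO 4). These are 2 of the 18 chromatin immunoprecipitation libraries of the series, taken as all libraries whose antibody label is H3K4me3 (Millipore). Their deposited peak lists held 16341 distinct intervals in WT and 17402 in KO. The mice were C57BL/6, 8 weeks old, and both genotypes carried loxP-flanked Ctcf alleles (CTCF fl/fl); WT was Albcre- and KO was Albcre+. Alb-Cre acts from the albumin promoter, so liver cells in which it was never active keep Ctcf and remain in the sample. The series also maps H3K27ac, H3K27me3, CTCF and PPARg in the same tissue, and the 3 WT and 3 KO H3K27ac libraries served here as the replicated measurement at the same genes. With 1 H3K4me3 library per genotype there is no replicate check of any H3K4me3 difference, and a difference between these libraries cannot be told apart from a difference between the genotypes.

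H3K4me3 is trimethylation of lysine 4 on histone H3, deposited at promoters by the SET1 and MLL family methyltransferases and removed by KDM5 demethylases. It sits on the nucleosomes flanking active transcription start sites, where it is read by parts of the transcription machinery, and it is also found at unmethylated CpG islands of genes with little transcription. Unusually wide H3K4me3 domains are known to mark genes that define a cell type. CTCF is a zinc finger protein that, with cohesin, shapes chromatin loops and domain borders, and many promoters lie near a CTCF site.

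The labelled tissue was checked against marker genes. Of 29 hepatocyte identity genes, 26 had an H3K4me3 interval at a gene end in WT and 25 in KO, although the labels' growth text describes cultured neural stem cells. Of 15 neural stem cell markers, 11 had none in either library, as did 15 of 16 Kupffer cell markers and 12 of 15 lymphocyte markers. Sex is not given for these libraries: 4 of 6 Y-linked genes were marked in both and Xist was marked in neither. Ctcf itself carried H3K4me3 at its promoter in both libraries, 2522 bp wide in WT and 2075 bp in KO, with the authors' fold enrichment at 15.5 and 8.48; the promoter mark does not show whether the gene was deleted. In whole tissue, a change in the share of cells of a type and a change in the mark per cell cannot be told apart.

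The promoters below stand for the 4 outcomes that recur in these lists, and each window runs from 250 bases before to 50 bases after the RefSeq start (build GRCm38.p6, the assembly that the files call mm10), with CpG dinucleotides in capitals. C4bp (chr1:130661569-130661868, minus strand), the complement regulator C4b-binding protein, and Cyp2c29 (chr19:39286835-39287134, plus strand), a hepatic cytochrome P450, had narrower intervals in KO. Slco1a1 (chr6:141946913-141947212, minus strand), an organic anion transporter of hepatocytes, was called in WT only. Niban2 (chr2:32875884-32876183, plus strand) was wider in KO. Fbn1 (chr2:125506389-125506688, minus strand), which encodes the matrix protein fibrillin-1, and Scarf2 (chr16:17797032-17797331, plus strand), a scavenger receptor family member, were called in KO only.
C4bp: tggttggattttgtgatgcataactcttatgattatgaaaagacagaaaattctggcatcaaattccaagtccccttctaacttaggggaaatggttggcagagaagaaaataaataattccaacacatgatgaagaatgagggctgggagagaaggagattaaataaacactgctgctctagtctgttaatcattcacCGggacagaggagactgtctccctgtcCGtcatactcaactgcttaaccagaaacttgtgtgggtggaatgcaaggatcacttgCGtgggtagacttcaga
Cyp2c29: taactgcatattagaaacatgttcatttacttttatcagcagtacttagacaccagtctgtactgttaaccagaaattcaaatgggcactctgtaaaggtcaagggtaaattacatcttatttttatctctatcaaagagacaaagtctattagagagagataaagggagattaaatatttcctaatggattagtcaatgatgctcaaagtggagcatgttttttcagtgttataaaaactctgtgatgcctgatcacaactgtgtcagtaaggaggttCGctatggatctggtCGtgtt
Slco1a1: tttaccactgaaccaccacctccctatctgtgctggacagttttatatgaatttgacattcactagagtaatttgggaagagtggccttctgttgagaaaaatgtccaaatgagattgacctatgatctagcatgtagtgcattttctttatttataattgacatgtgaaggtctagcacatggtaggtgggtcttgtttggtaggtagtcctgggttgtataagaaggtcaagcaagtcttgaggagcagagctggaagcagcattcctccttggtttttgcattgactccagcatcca
Niban2: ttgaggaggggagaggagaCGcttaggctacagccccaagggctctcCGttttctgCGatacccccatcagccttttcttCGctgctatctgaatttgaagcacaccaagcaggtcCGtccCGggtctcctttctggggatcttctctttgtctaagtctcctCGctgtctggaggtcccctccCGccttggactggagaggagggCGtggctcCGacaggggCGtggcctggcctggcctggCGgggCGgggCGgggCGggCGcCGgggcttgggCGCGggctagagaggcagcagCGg
Fbn1: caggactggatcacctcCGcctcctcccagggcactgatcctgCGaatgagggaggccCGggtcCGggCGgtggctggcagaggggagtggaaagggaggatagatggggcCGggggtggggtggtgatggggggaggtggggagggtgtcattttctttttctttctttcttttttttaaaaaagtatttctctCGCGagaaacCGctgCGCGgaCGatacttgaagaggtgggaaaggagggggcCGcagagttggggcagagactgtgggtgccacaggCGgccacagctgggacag
Scarf2: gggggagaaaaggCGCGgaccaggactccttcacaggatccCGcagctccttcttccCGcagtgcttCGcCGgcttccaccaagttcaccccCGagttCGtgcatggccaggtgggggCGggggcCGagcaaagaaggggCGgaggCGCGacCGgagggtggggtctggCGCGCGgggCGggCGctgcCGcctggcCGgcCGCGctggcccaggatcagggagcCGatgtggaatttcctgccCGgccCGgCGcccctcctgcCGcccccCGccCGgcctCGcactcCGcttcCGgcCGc
The first 3 promoters hold 3, 2 and 0 CpG dinucleotides, and the last 3 hold 20, 14 and 34. The ratio of observed to expected CpG was 0.233, 0.217 and 0 against 0.633, 0.583 and 0.820. These promoters were picked as clear cases after their values were seen, and their contrast is not that of the classes: the median promoter held 19 CpG dinucleotides among narrower genes, 18 among KO-only, 22 among wider and 7 among WT-only genes.

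The peak lists differed in breadth more than in which loci they held. WT intervals covered 21.7 Mb with a median width of 1214 bp and a median fold enrichment of 8.84, and KO intervals covered 19.1 Mb with medians of 995 bp and 7.54. Intervals of at least 4 kb numbered 280 in WT (1.71%) and 88 in KO (0.506%). Merging the overlapping intervals of the libraries gave 17997 regions, of which 12566 (69.8%) were called in both, 2823 (15.7%) in WT only and 2608 (14.5%) in KO only. The regions called in 1 library were small and weak, with median widths of 290 bp in WT and 259 bp in KO and a highest fold enrichment of 10.2 and 11.3. Presence depended on strength in both directions: 41.0% of the lowest decile of WT intervals overlapped a KO interval, and from the fifth decile upward at least 97.1% did. The matching shares of KO intervals found in WT were 50.6% and 94.9%. A peak list holds no read counts, so the sequencing depth of the libraries is unknown, and its part in these calls was not tested.

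The regions called in 1 library lay in different places. A region called in both was within 2 kb for 60.6% of the WT-only regions, and 20.5% overlapped the end of a protein-coding gene (within 1 kb). Of the KO-only regions, 37.4% lay beside a shared region and 44.1% at a gene end. Regions called in both were at a gene end in 76.8% of cases. Regions with no H3K27ac interval in any of the 6 libraries made up 11.2% of the WT-only, 28.1% of the KO-only and 2.03% of the shared regions. H3K27me3, the Polycomb mark, overlapped 1.13%, 6.90% and 1.01% of them. Most WT-only regions thus lay close to a region called in both, and more KO-only regions lay at a gene end than beside a shared region.

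At the level of genes, 10735 of 21887 protein-coding genes (49.0%) had H3K4me3 within 1 kb of an annotated end in both libraries. A further 226 genes were called in WT only (1.03% of all genes) and 656 in KO only (3.00%). Where RefSeq promoters gave the strand, the marked end was the annotated start in 94.4% of 9370 genes. Promoters inside a gene were not seen, and Hnf4a, Srebf1 and Ppargc1a stand without the mark for that window. The genes called once had narrow intervals, with a median of 423.5 bp for WT only and 328 bp for KO only, against 1684.5 bp in WT and 1471 bp in KO for genes called in both. No interval lay within 5 kb in the other library for 151 of the WT-only and 564 of the KO-only genes. The 10 genes with the strongest intervals in each class all carried the mark within 5 kb in the other library. They included Ttr (transthyretin), Proc (protein C) and Apoc2 in WT and Fitm1, Ptbp2 and Ppm1h in KO, so for these the call moved off the gene end without leaving the locus. Ttr, for instance, had 4008 marked bases within 5 kb in WT and 3454 in KO, and Apoc2 had 4143 and 2207.

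Most promoters called in both libraries were somewhat narrower in KO. Over 10732 genes measured at the same end, the median log2 ratio of KO to WT width was -0.18, a ratio of 0.886, and 7752 genes (72.2%) were narrower to any degree. Width was at least 1.5-fold smaller in KO for 1429 genes (13.3%) and at least 1.5-fold greater for 616 (5.74%). After the median was subtracted, the counts were 877 and 851, so the share of wider genes among those past 1.5-fold went from 30.1% to 49.2%. Counting all marked bases within 5 kb of the gene end, which does not depend on how an interval is split, gave 1009 genes with fewer (9.40%) and 443 with more (4.13%). By both measures together, 817 genes were narrower and 352 wider. Across these genes, widths in the libraries had a Spearman correlation of 0.81 and fold enrichments of 0.68; the genes share 2 libraries and are not independent replicates.

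**Figure D1:**
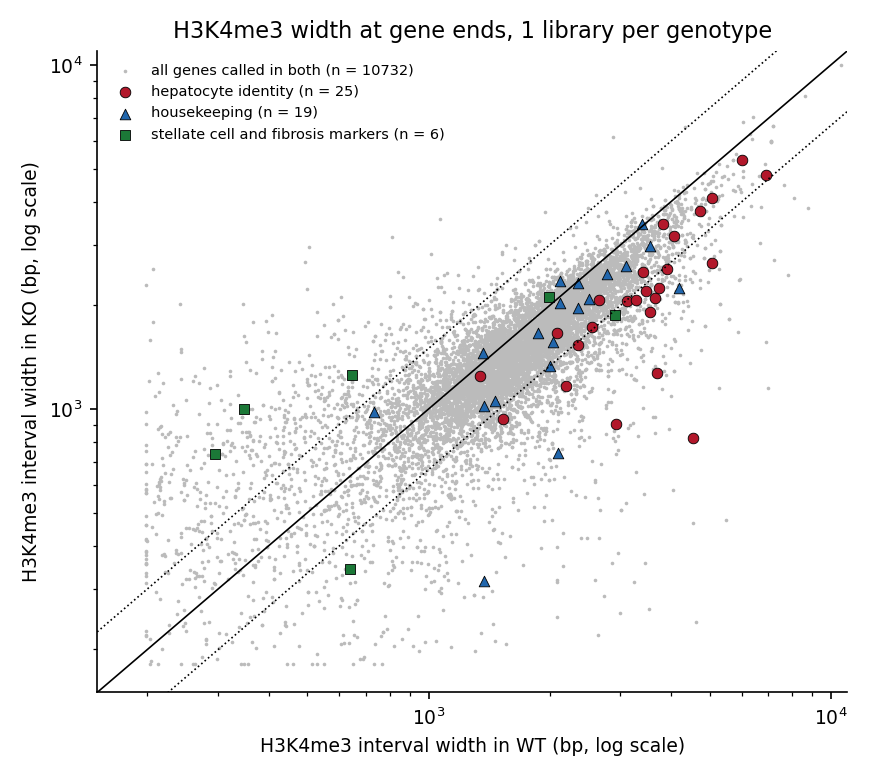
Width of the H3K4me3 interval at the gene end in WT (horizontal, bp, log scale) and KO (vertical, bp, log scale) for 10732 genes called in both libraries, 1 point per gene, with the 1.5-fold limits. Most points lie just under the diagonal, and 1429 genes fall past the lower limit against 616 past the upper one.

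The difference in width was on both sides of the start. Counted in bp it was somewhat greater on the transcribed side. Relative to the WT extent it was not, either over all genes measured or among the narrower ones. Among 6360 genes whose interval held a single annotated start, the median extent downstream of the start was 1071 bp in WT and 945 bp in KO, and upstream it was 562 bp and 490.5 bp. For the 665 of them past the 1.5-fold limit for narrower, the downstream median was 1287 bp in WT and 785 bp in KO, and the upstream median 555 bp and 277 bp. The 188 wider ones went from 277.5 bp to 827.5 bp downstream. The shift was not a matter of the widest domains alone: the widest decile of genes had a median log2 ratio of -0.23 with 15.4% past the limit. The narrowest decile held both extremes, with 30.4% of its genes wider and 21.2% narrower. Of 270 genes with a WT interval of at least 4 kb, 75 also reached it in KO, which had 83 such genes in all.

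Genes that define the hepatocyte were narrower as a group. Of 25 hepatocyte identity genes called in both libraries, all 25 were narrower in KO, 14 of them past 1.5-fold and none wider, with a median log2 ratio of -0.62 against -0.18 over all genes, of which 13.3% were past the limit. The list starts from wide promoters: 15 of the 25 were in the widest decile, whose own median was -0.23. Secreted plasma proteins were on both sides of the limit. Alb, serum albumin, had an interval of 3700 bp in WT and 1271 bp in KO, and its marked bases within 5 kb were 3700 and 1986. Ahsg, fetuin-A, went from 4534 to 822 bp, Serpina1a, an alpha-1-antitrypsin, from 2916 to 902 bp, and Trf, transferrin, from 3662 to 2103 bp. Each of these intervals was shorter in KO by over 1.5-fold. Apoa2, Fga and Serpina1c stayed within it, with 2658, 3416 and 1345 bp against 2073, 2494 and 1249 bp. Ttr had a 4301 bp interval at its end in WT and none at that end in KO.

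The transcription factors and enzymes of the same list were likewise spread around the limit. Foxa2 and Foxa3, pioneer factors of liver development, went from 3914 and 3118 bp to 2555 and 2056 bp, and Onecut1, another liver transcription factor, from 3275 to 2071 bp. Cebpa and Prox1 stayed within 1.5-fold, at 5999 and 6916 bp in the WT library against 5290 and 4802 bp. Of the enzymes, Pck1 and G6pc of gluconeogenesis went from 5071 and 3739 bp to 2664 and 2249 bp, while Cps1 and Ass1 of the urea cycle measured 5078 and 4724 bp against 4098 and 3754 bp. Marked bases within 5 kb were at least 1.5-fold fewer for 9 of the 25, against 9.40% of all genes. None of the 25 had as many more, against 4.13% of all genes. In the fold ranking of each library, 17 of the 25 were at least 20 percentile points lower in KO and none was as much higher. Of all genes called in both, 17.2% were as much lower and 17.3% as much higher.

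Bile acid and cholesterol genes showed the same direction. All 19 called in both were narrower in KO to some degree, 8 of them past the limit and none wider, with a median log2 ratio of -0.49; over all genes, 72.2% were narrower to some degree and 13.3% past the limit. Cyp7a1, which catalyses the first and limiting step from cholesterol to bile acids, went from 3273 to 657 bp, and its marked bases within 5 kb were 4144 and 1533. Cyp7b1, of the alternative pathway, went from 2684 to 691 bp and Cyp8b1, which sets the cholic acid share, from 3910 to 2257 bp. The bile salt export pump Abcb11 went from 2435 to 1168 bp, and its percentile among all fold enrichments was 98.9 in WT and 17.2 in KO. The uptake transporter Slc10a1 (3726 and 3099 bp) and the cholesterol synthesis gene Hmgcs1 (1820 and 1614 bp) stayed within 1.5-fold.

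Drug metabolising enzymes divided by gene. Of 14 xenobiotic genes called in both, 6 were narrower past the limit and none wider (median log2 ratio -0.46), beside 13.3% and 5.74% of all genes. Cyp2c29 went from 2952 to 381 bp, Cyp3a11 from 3227 to 912 bp, Ugt2b5 from 3189 to 1257 bp and Cyp2e1 from 3067 to 1835 bp. The nuclear receptors that control such enzymes, Nr1i2 (PXR) and Nr1i3 (CAR), measured 2828 and 2650 bp against 2054 and 2008 bp, within 1.5-fold, and Ugt1a1 had 3530 and 3585 bp. Cyp2c37 (1290 bp) and Cyp1a2 (296 bp) were called in WT only. The Cyp2c, Ugt2b and Serpina1 genes belong to families of close copies, and reads that match several copies can be lost or placed at random, so their widths are uncertain.

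Genes of fat handling were narrower in part. Fatty acid oxidation and ketogenesis had 10 of 24 genes narrower past the limit and 1 wider, with a median of -0.33. Of all genes called in both, 13.3% were narrower past the limit and 5.74% wider, with a median of -0.18. Cyp4a14, a fatty acid hydroxylase, went from 4515 to 1798 bp and Cpt2, of mitochondrial fatty acid import, from 2543 to 1150 bp. Cpt1a, the entry step of mitochondrial oxidation, had 5010 and 4524 bp and the receptor gene Ppara 3464 and 3818 bp; both stayed within 1.5-fold. The exception was Fgf21, a fasting hormone, which went from 328 to 773 bp. Among 18 PPAR target and lipid droplet genes 7 were narrower and 1 wider (median -0.41), with Plin2, a lipid droplet coat protein, at 4730 and 2377 bp and Acsl1 at 6657 and 3042 bp. Pparg had 985 bp in WT and 508 bp in KO, but 985 and 1059 marked bases within 5 kb, so its interval was split and not lost. Cd36 had no interval at a gene end in either library. Fatty acid and triglyceride synthesis went both ways, with 5 of 19 narrower, among them Dgat2 (4023 to 2318 bp), and 3 wider, namely Scd1, Thrsp and Pnpla3, whose intervals went from 235, 246 and 407 bp to 381, 610 and 645 bp.

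Growth hormone signalling and sex-biased genes included the sharpest differences. Of 14 genes of growth hormone and STAT5 signalling, 5 were narrower and none wider (median -0.41), beside 13.3% and 5.74% of all genes (median -0.18). Igf1, the main hepatic product of the axis, had a 4635 bp interval in WT and 241 bp at the same end in KO, although 4512 and 2982 bases were marked within 5 kb. Igfals, its binding partner in plasma, went from 2090 to 397 bp, Socs3 from 1466 to 211 bp and Prlr, the prolactin receptor, from 2361 to 822 bp. The receptor gene Ghr (3893 and 3143 bp) and Stat5a and Stat5b, which share 1 interval (1023 and 1049 bp), stayed within 1.5-fold. Of 23 male-biased liver genes, 13 were marked in WT and 8 in KO, and no member was called in KO only. The 5 called in WT only, beside 1.03% of all genes, were Elovl3 (1606 bp), Susd4 (1002 bp), Slco1a1 (847 bp), Hsd3b5 (246 bp) and Serpina1e (220 bp). Of the 8 called in both, 4 were narrower, with Ugt2b1 at 2887 and 1126 bp. The 31 female-biased genes had 9 called in both, of which 4 were narrower, and Cux2 and Prom1 called in KO only with 595 and 401 bp.

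**Figure D2:**
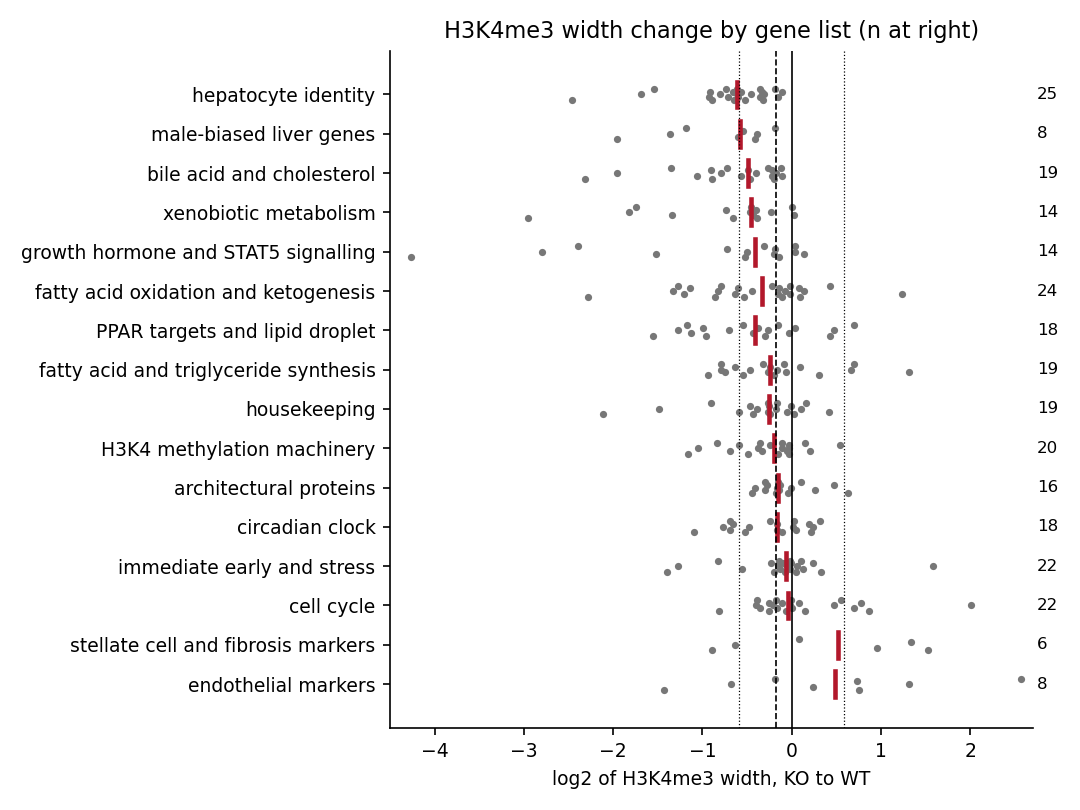
Log2 ratio of KO to WT H3K4me3 width (horizontal) for the members of each gene list called in both libraries (vertical, 1 row per list), with the median of each list and the median of all 10732 genes. The hepatocyte identity genes all lie below 0, with a median of -0.62, while the cell cycle genes lie on both sides with a median of -0.04.

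Lists of genes used by many cell types also held narrower members, beside 13.3% of all genes. Of 19 housekeeping genes, 4 were narrower past the limit (Tbp, Hprt, Polr2a and Psmb2) and none wider, with a median of -0.25 against -0.18 over all genes; Gapdh had 3398 and 3456 bp and Actb 2512 and 2091 bp. Architectural proteins had none of 16 narrower and 1 wider, Stag2. The H3K4 methylation machinery had 5 of 20 narrower, among them the methyltransferase genes Kmt2a (4455 to 2751 bp), Kmt2c (3638 to 1630 bp) and Kmt2d (1612 to 777 bp), while Setd1a, Setd1b and the 3 Kdm5 demethylase genes in the list stayed within 1.5-fold. Immediate early and stress genes had 3 of 22 narrower and 1 wider: Jun (4168 and 4301 bp) and Junb (4965 and 4515 bp) were close, Ddit3 went from 5307 to 2016 bp and Klf4 from 838 to 2509 bp. Clock genes had 5 of 18 narrower, including Dbp (4097 to 2403 bp) and Clock (3061 to 1903 bp), whereas Nr1d1 had 3672 and 3280 bp. Time of day at collection is not stated.

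The extent of the mark was also read base by base around the start. At 53 hepatocyte genes with a single start, from the identity, bile acid, fatty acid oxidation and xenobiotic lists, H3K4me3 covered the position 2 kb downstream of the start in 62.3% of genes in WT and 28.3% in KO. At 2.5 kb it covered 60.4% and 20.8%, and at the start 88.7% and 75.5%. Just upstream, at 200 bp before the start, the shares were 77.4% and 52.8%, and at 500 bp before it 30.2% and 28.3%. At 32 housekeeping and cell cycle genes the share was 46.9% in WT and 31.3% in KO at 1 kb downstream, 21.9% and 12.5% at 1.5 kb, and 9.38% in both at 2 kb. Over all 6365 genes called in both it was 11.1% in WT and 6.66% in KO. Coverage at 1 and 1.5 kb downstream was thus lower in KO for hepatocyte and common genes alike. Close upstream it was lower in all groups. At 200 bp before the start, housekeeping and cell cycle genes had 84.4% in WT and 71.9% in KO. All genes called in both had 86.3% and 79.5% there. At the start itself these groups had 90.6% in both libraries, and 93.2% and 92.1%. The groups were not selected alike. Those from gene lists took members marked in either library, so members called in 1 library only could enter. The group of all genes was limited to genes called in both.

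**Figure D3:**
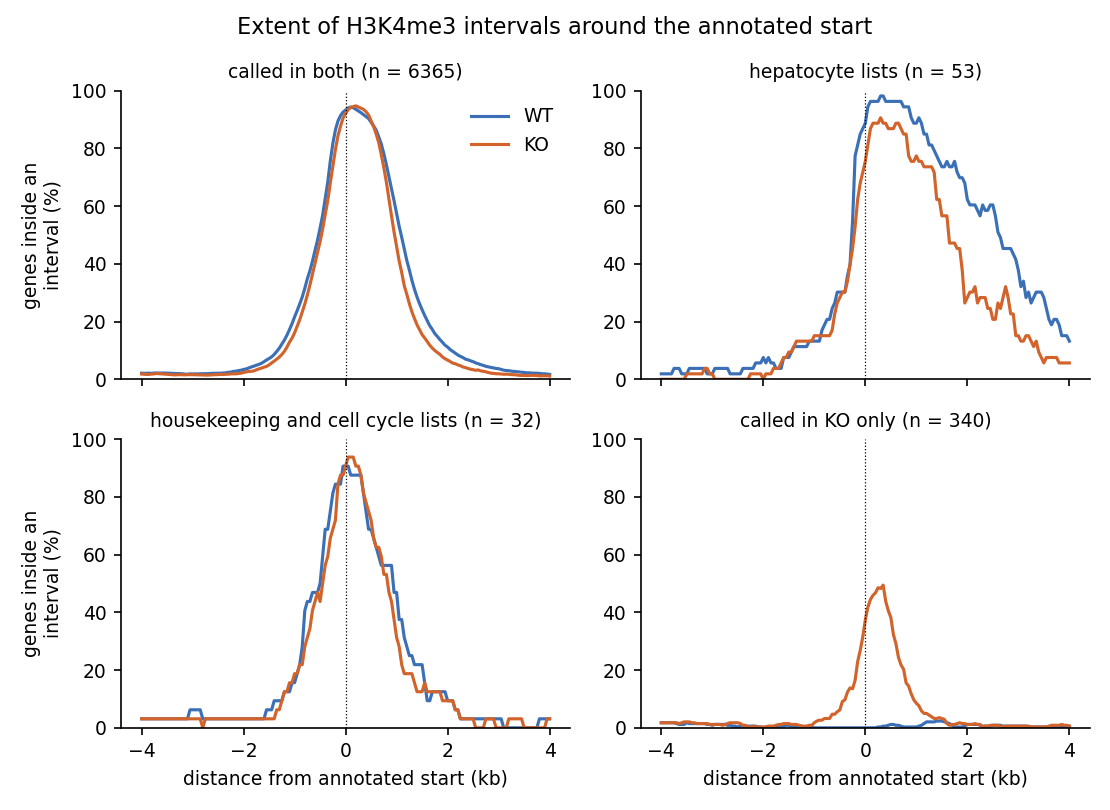
Share of genes covered by an H3K4me3 interval (vertical, percent) at each distance from the annotated start (horizontal, kb, transcribed direction to the right), for gene groups with a single start, WT and KO as separate lines. For the hepatocyte genes the KO line lies below the WT line from 200 bp upstream (77.4% and 52.8%) through the start (88.7% and 75.5%) to 2 kb downstream (62.3% and 28.3%).

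Genes marked in KO only or wider in KO included markers of other liver cells. Of 16 stellate cell and fibrosis markers, 6 were called in both and 4 in KO only, beside 3.00% of all genes: Pdgfrb (185 bp), Col1a2 (217 bp), Col3a1 (231 bp) and Rgs5 (311 bp). Reln, Hand2 and Ecm1 were wider, from 644, 294 and 347 bp to 1254, 741 and 1001 bp, and Lrat (637 to 343 bp) and Tgfb1 (2899 to 1874 bp) were narrower. Of 16 endothelial markers, Pecam1 (347 bp), Kdr (181 bp) and Tek (301 bp) were called in KO only and Oit3 (660 bp) in WT only. The scavenger receptor genes Stab1 and Stab2 and the sinusoidal lectin Clec4g went from 696, 221 and 202 bp to 1738, 373 and 1204 bp, while Cdh5 went from 1256 to 465 bp. Stellate and endothelial members called in both libraries started from narrow intervals, with a median width decile of 1.5 in each list. In the narrowest decile of all genes, 30.4% were wider in KO and 21.2% narrower. The intervals of Pdgfrb and Kdr were among the narrowest 5% in KO (under 186 bp). Of cholangiocyte markers, Epcam (554 bp) and Krt23 (224 bp) were called in KO only and Muc1 (205 bp) in WT only, while both members called in both libraries were narrower in KO, 1 of them past the limit. The summed H3K4me3 within 5 kb of list members was 11330 bases in WT and 14526 in KO for stellate markers, 18083 and 17445 for endothelial markers, and 6078 and 5126 for cholangiocyte markers. It was 111749 and 82049 bases for hepatocyte identity. The part of a change in cell makeup in these values was not tested.

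Some developmental and cell cycle genes also had intervals in KO only or wider ones. Of 39 Hox genes, Hoxa3 (461 bp), Hoxa4 (620 bp) and Hoxb4 (1378 bp) were called in KO only, beside 3.00% of all genes. Hoxb5 was wider, from 216 to 890 bp, while 30 of the 39 had none in either library. Of 17 genes of fetal liver and regeneration, Lin28b (347 bp) and Cd24a (557 bp) were called in KO only. Sox4 went from 527 to 1911 bp, but the fetal genes Afp and Igf2 had no interval at a gene end in either library. Of 25 cell cycle genes, 22 were called in both, with 4 wider and 1 narrower past the limit (5.74% and 13.3% of all genes), 13 narrower to any degree and a median of -0.04. Mcm2, of the replicative helicase, was the narrower one, from 557 to 317 bp. Mki67, the proliferation antigen, went from 722 to 1317 bp, Cdk1 from 709 to 1213 bp, Aurkb from 320 to 1288 bp and Ccnd1 from 1476 to 2396 bp. The mitotic genes Ccnb2 and Cdc20 were called in KO only, with 312 and 331 bp, beside the same 3.00% of all genes. Cell cycle and Hox members called in both libraries had median width deciles of 3 and 2. In those deciles of all genes, 5.7% and 11.4% were wider in KO.

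Among genes with no mark within 5 kb in WT, Cenpf (918 bp in KO), Npdc1 (759 bp), Scarf2 (711 bp) and Fbn1 (574 bp) had some of the wider KO intervals. The corresponding WT-only genes included Leap2 (2055 bp in WT), a hepatic peptide hormone, Serpina6 (1603 bp), the corticosteroid-binding globulin, and Slco1a1 with 1740 marked bases. These examples were singled out after their values were seen. By the width rule, the genes most widened in KO were led by Loxl3, a lysyl oxidase of matrix crosslinking, from 207 to 2552 bp, and Niban2, from 241 to 2013 bp. Part of that ratio comes from splitting, since the marked bases within 5 kb were 2162 and 2552 for Loxl3 and 583 and 2013 for Niban2. Nol4l (203 and 1582 bp) and Nanos1 (242 and 1469 bp) had no other marked bases nearby in either library, so their ratio was the same by both measures. The 10 most narrowed were led by Igf1 and held further products of hepatocytes: the bile acid and drug uptake transporter Slco1b2 (4539 to 467 bp), the sulfotransferase Sult2a8 (3249 to 314 bp), the glutamine transporter Slc38a3 (5499 to 476 bp) and C4bp (2733 to 286 bp). Marked bases within 5 kb were 3695 and 701 for Sult2a8 and 2733 and 669 for C4bp, but 4801 and 2825 for Slco1b2 and 4362 and 3382 for Slc38a3. The first pair lost most of the mark in the neighbourhood, and the second pair kept the larger part of it in other pieces. The rest of the 10 were Tusc2 (3528 to 262 bp), Actrt3 (2990 to 256 bp), AI182371 (2642 to 220 bp), Tsc22d3 (3450 to 357 bp) and Hsd17b1 (2090 to 249 bp). In that order, their marked bases within 5 kb were 6136, 4208, 2840, 3450 and 2090 in WT. In KO they were 4404, 2986, 1724, 2976 and 1298.

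The rank of the fold enrichment at each gene end within its own library moved in both directions about equally. It was at least 20 percentile points higher in KO for 1852 genes (17.3%) and as much lower for 1847 (17.2%), which a ranking forces to be near each other. Several hepatocyte genes were lower in KO: complement C3 went from the percentile 98.8 to 15.5, Cyp8b1 from 92.6 to 12.3 and Alb from 65.4 to 24.2. Ctcf went from 86.6 to 29.1. The 10 genes with the largest gain in rank included Psmd1, a proteasome subunit (20.4 to 94.3), and Kat6a, a histone acetyltransferase (20.8 to 93.4), whose widths stayed within 1.5-fold. Prkar1a, a protein kinase A subunit, went from 1.57 to 91.1, but its WT interval at the gene end was a 492 bp piece of 2880 marked bases within 5 kb. The 10 largest losses included the apoptosis gene Bax (99.4 to 8.76), Rps29 of the ribosome (95.3 to 12.4) and Spop, a ubiquitin ligase adaptor (99.5 to 9.42), as well as C3, so they were not limited to liver genes. The Bax values come from the gene end away from its annotated start. Its KO interval there was a 581 bp piece, with 5052 bases marked within 5 kb in WT and 4281 in KO.

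Promoter sequence and the other marks differed between the classes. Of all 16477 RefSeq promoter windows matched to a gene, 48.2% had an observed to expected CpG ratio of at least 0.6. The share was 81.9% where width stayed within 1.5-fold, 73.5% for wider, 67.6% for narrower, 55.9% for KO-only and 26.2% for WT-only genes. Class shares cover only genes with a RefSeq start within 1 kb of the marked end. In that order these were 6402 of 8687, 427 of 616, 995 of 1429, 424 of 656 and 107 of 226 genes. The TATA box letters TATAAA, read on both strands, were in 6.25% of promoters within 1.5-fold, 7.49% of wider, 8.34% of narrower, 10.1% of KO-only, 11.2% of WT-only and 13.5% of all windows. Every class that differed between the libraries, in either direction, had a lower share of CpG-rich promoters than the class within 1.5-fold; the differences were not tested. A match is only a run of letters, not a site in use.

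PPARg, CTCF and H3K27me3 were compared as called in their own libraries. A PPARg peak within 1 kb in any library was present at 47.4% of narrower, 31.4% of within-limit, 38.1% of WT-only, 8.44% of wider and 3.05% of KO-only genes. Where PPARg was called in all 4 of its libraries, 26.7% of genes were narrower, against 16.3% where it was called in KO libraries only and 10.3% where there was none. A CTCF site lost in KO was at 168 genes called in both, and 29 of these (17.3%) were narrower, against 13.0% at retained CTCF sites and 13.4% with no CTCF. H3K27me3 in the KO library overlapped the end of 26.7% of KO-only genes and in WT 18.9%, against 2.54% and 1.95% of all marked genes. Among the 656 genes called in KO only, 124 ends thus carried the Polycomb mark in WT and 175 in KO.

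**Figure D4:**
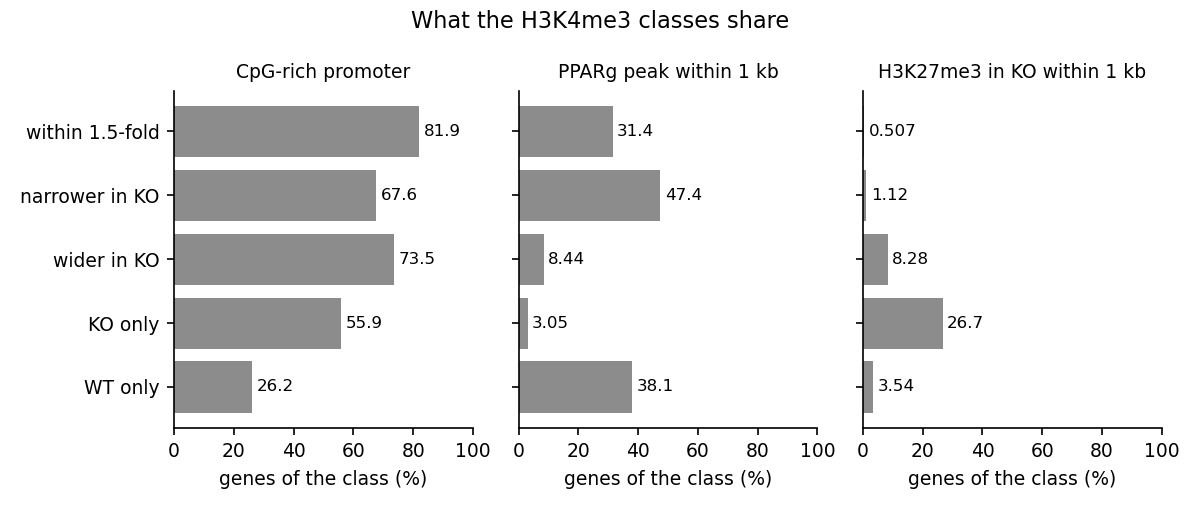
Share of genes (percent) with a CpG-rich promoter, a PPARg peak and H3K27me3, by H3K4me3 class: within 1.5-fold, narrower, wider, KO only and WT only. CpG shares cover only genes with a RefSeq start within 1 kb of the marked end (107 of 226 WT-only and 424 of 656 KO-only genes). PPARg is highest for narrower genes (47.4%), CpG-rich promoters are fewest among WT-only genes (26.2%) and H3K27me3 in KO is highest for KO-only genes (26.7%).

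H3K27ac gave the replicated check, as the percentage of the 5 kb window centred on the marked gene end that was covered by H3K27ac intervals in each library. Nothing in the labels says how the animals were processed, so its p-values measure the spread between these samples. The KO 4 library stood apart, covering 126 Mb in all against 78.2 to 91.5 Mb in the others. It carries the same name as the KO H3K4me3 library, and whether both came from the same animal is not stated. By limma over 10896 gene ends, none was higher in KO at an adjusted p under 0.05 (0%) and 1 was lower (0.00918%); at an unadjusted p under 0.05 there were 610 higher (5.60%) and 102 lower (0.936%). These counts were 335 and 342 without KO 4, 204 and 491 when each library was divided by its total covered length, and 221 and 618 by the log2 best fold enrichment. The median difference over all ends was 2.72 points, -0.0767 without KO 4 and -2.95 after that division, so the balance of directions depends on scaling and on KO 4. The 1 gene that passed was Elovl3, a fatty acid elongase of male-biased expression. It was covered for 66.9%, 65.7% and 65.0% of the window in WT 1, 2 and 4, and for 16.5%, 10.7% and 17.8% in KO 2, 3 and 4. The groups did not overlap, and the difference was -50.9 points (SE 3.96, limma adjusted p = 0.0293, n = 3 and 3). The direction held in every alternative, but the call did not: without KO 4 the difference was -52.3 points with a limma adjusted p of 0.136, and without any 1 library the adjusted p was 0.136 to 0.346. It was 0.263 with a 1 kb window, 0.589 by the log2 best fold enrichment and 1 with the replicate block. The H3K4me3 of Elovl3 was 1606 bp in WT, and none was called in KO.

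Other male-biased genes had H3K27ac coverage in the same direction without passing in the 5 kb window. By the log2 best fold enrichment, set to 0 where no interval was called, the 1 end lower in KO was Hsd3b5. Its difference was -1.70 (limma adjusted p = 0.000527). Slco1a1 had 89.4%, 87.8% and 95.1% in WT and 72.5%, 27.7% and 70.4% in KO (-33.9 points, SE 11.5, limma adjusted p = 0.701). Cyp7b1 had 98.0%, 100% and 100% against 64.3%, 76.6% and 71.5% (-28.5 points, SE 4.48, limma adjusted p = 0.199). In both genes every KO library lay below every WT library. Over the 13 marked male-biased genes, WT libraries averaged 74.0%, 78.0% and 78.5% and KO libraries 60.4%, 61.1% and 65.8%, and 4 of the 13 had all KO below all WT, with or without KO 4, against 1.5% of all marked ends (9.55% without KO 4). For the 26 hepatocyte identity genes the WT means were 91.8%, 92.3% and 89.2% and the KO means 89.7%, 89.1% and 93.3%, and in 1 gene every KO library lay below every WT library and in 1 above (3 and 1 without KO 4). Their windows were nearly filled with H3K27ac in every library, which leaves this measure little room to rise.

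H3K27ac differed by a few points between the H3K4me3 classes. Genes wider in KO had mean H3K27ac coverage of 27.6%, 27.7% and 23.4% in WT and 27.1%, 30.6% and 41.6% in KO, a difference of 6.90 points, or 2.63 without KO 4. Narrower genes had 52.6%, 55.6% and 50.5% against 50.8%, 53.4% and 59.8%, a difference of 1.73 points, or -0.835 without KO 4. All marked ends differed by 3.15 points, or 0.166 without KO 4. The libraries of the genotypes overlapped in the narrower class, and in the wider class KO 2 lay within the WT range. For KO-only genes the difference was 5.66 points (2.38 without KO 4) and for WT-only genes 0.880 points (-1.94 without KO 4). All 3 KO libraries lay above all WT libraries at 68 of 616 wider genes (11.0%) and 54 of 656 KO-only genes (8.23%), against 8.13% of all marked ends. They lay below at 16 of 226 WT-only genes (7.08%) and 39 of 1429 narrower ones (2.73%), against 1.5%. Without KO 4 these were 33 (14.6%) and 179 (12.5%), against 9.55%. Across genes, the log2 width ratio and the H3K27ac difference had a Spearman correlation of 0.14, or 0.10 without KO 4. All genes share these libraries. KO 4 and WT 2 carry the same names as the H3K4me3 libraries, and whether they are the same animals is not stated.

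**Figure D5:**
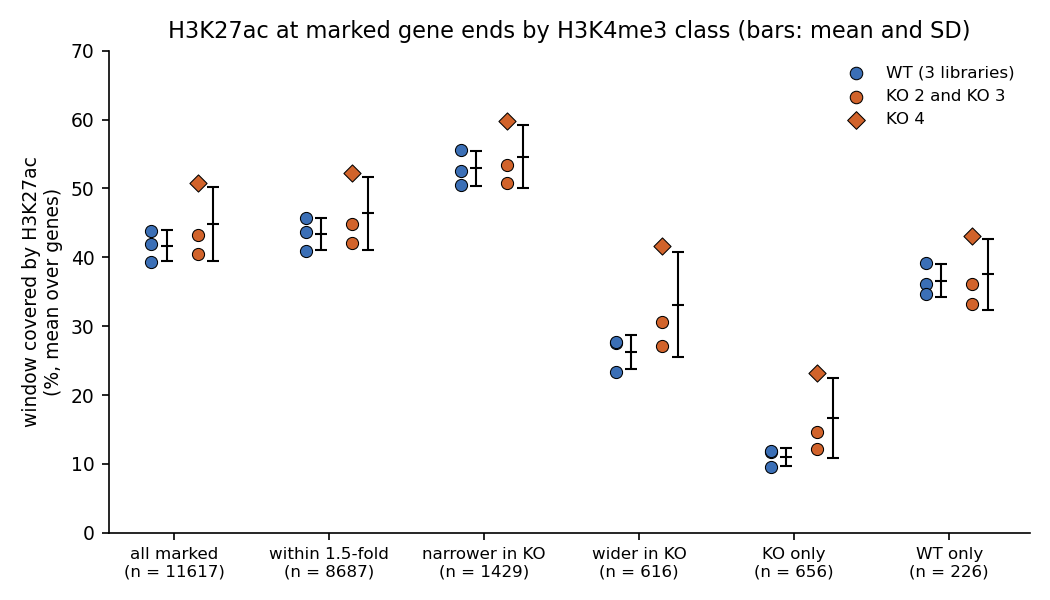
Mean H3K27ac coverage of the 5 kb window at gene ends (vertical, percent) in each of the 3 WT and 3 KO libraries, 1 point per library with the mean and SD as bars, by H3K4me3 class (horizontal). KO 4 is the highest point in every class; the genotypes overlap for narrower, wider and WT-only genes, and for KO-only genes the KO points (12.2%, 14.7% and 23.3%) lie above the WT points (9.56% to 11.9%).

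H3K27ac at markers of other cells separated the genotypes in part of the stellate list. Stellate cell and fibrosis markers had mean coverage of 48.4%, 40.4% and 33.8% in WT and 49.8%, 55.9% and 77.9% in KO, and at 4 of 10 marked members all KO libraries lay above all WT libraries, also without KO 4, against 8.13% of all ends (8.78% without KO 4). Vim, an intermediate filament of mesenchymal cells, had 67.6%, 56.5% and 43.6% against 84.5%, 85.8% and 89.6%, while its H3K4me3 was 1998 and 2120 bp. Endothelial markers had 61.2%, 67.4% and 63.3% in WT and 68.5%, 62.9% and 78.9% in KO, which overlapped, as did the library means of cholangiocyte and lymphocyte markers. Ctcf itself had 41.1%, 42.2% and 40.9% in WT and 62.5%, 56.1% and 73.0% in KO, a difference of 22.5 points (SE 5.12, limma adjusted p = 0.431) without overlap, opposite to the shorter H3K4me3 interval at the same promoter. The largest KO excesses without overlap between the genotypes, none past the test, included Adamts5, a matrix protease (5.79% ± 5.99 in WT and 62.4% ± 9.53 in KO, SD, n = 3, limma adjusted p = 0.125), and the growth factor gene Tgfb3 (16.6% ± 10.6 and 59.7% ± 2.43, limma adjusted p = 0.199).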

How the data were processed

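Peak lists were compared for 1 WT and 1 KO H3K4me3 library and for 3 WT and 3 KO H3K27ac libraries, with the CTCF, PPARg and H3K27me3 lists as annotations. Per the submitters' processing notes, the tools were MACS2 2.1.2, BWA 0.7.12, deepTools 3.1.3 and Picard 1.77, with the mm10 genome; the control used in peak calling is not given in the sources used here. Each library has its own deposited list without a header, whose columns, in the narrowPeak layout, hold the fold enrichment (a ratio) and −log10 q of each summit as the authors' peak caller gave them; no read counts are included. Rows of 1 interval were collapsed to the summit with the best −log10 q (43565 rows to 16341 intervals in WT, 41160 to 17402 in KO). Lists overlapped if they shared at least 1 bp. A gene was marked if an interval lay within 1 kb of an end of a RefSeq protein-coding gene; the fold threshold was 1.5 and the rank threshold 20 percentile points.

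H3K27ac coverage of the 5 kb window was tested with limma 3.58.1 (R 4.3.3) over all ends whose coverage varied between libraries. Genotype was the only term, with Benjamini-Hochberg adjustment, and the code was tested on simulated data. The 721 ends without variation were not tested, among them fully covered ones such as Ttr and Apoc2. Python 3.11.15, numpy 2.4.6, pandas 2.3.3 and matplotlib 3.10.9 did the rest. Promoter sequences came from RefSeq and matched 16477 genes.

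Genes were named by rule: Ctcf, Pparg, Cd36, Alb and Elovl3, the 10 most extreme of each class, and list members past a threshold; others are marked as chosen later. The members and the 25 lists were chosen with earlier results of these data known. Alternatives were other windows, overlaps, a stricter −log10 q of 5, other H3K27ac measures, and leaving out each library. Some list members are not reported here.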

Additional observations from a re-analysis of the deposited data

How the results depend on the processing

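Each H3K4me3 value rests on 1 library per genotype, and no alternative replaces a replicate. Of the main results under the alternatives, 95 stayed within the limits set for them and 27 moved. For mean H3K27ac differences in points the limit was 1 SD between libraries, so some that stayed changed sign. Narrower genes went from 1.73 points to -0.835 without KO 4. WT-only genes went from 0.880 points to -1.94 without KO 4, -2.08 at equal covered length and -0.124 without WT 4. Intervals with no partner of 50% reciprocal overlap in the other library numbered 5654 in WT and 6715 in KO. These are intervals of each list, which may still overlap by less, and not merged regions. Regions called once numbered 1579 for WT and 1059 for KO at a −log10 q of at least 5. Genes called in WT only were 138 at annotated starts and 346 at the stricter q, where genes wider in KO were 378. Narrower genes were 877 after centring, added after seeing the data. By limma, ends higher in KO numbered 1 with a 1 kb window, 36 when the measure was the log2 best fold enrichment (0 where no interval was called, which narrows the spread) and 610 without adjustment. Ends lower numbered 0 with the 1 kb window, at equal covered length, with no filter, with the replicate block and without each library in turn (0 to 0), and 102 without adjustment. All KO below all WT held at 1110 ends without KO 4, also added after seeing the data. The mean H3K27ac difference of narrower genes was -0.0767 by log2 best fold and -5.34 points when divided by the total covered length; for WT-only genes it was -0.0187 and -4.25. Elovl3 missed an adjusted p of 0.05 in 11 alternatives (0.0535 to 1) and passed in 2 (0.0254 and 0.0437). The labels share only replicate numbers 2 and 4 between genotypes. The deviations of same-numbered H3K27ac samples correlated at -0.0434 and -0.0860. Pairs with different numbers ranged from -0.0479 to 0.0846. With so few libraries per genotype, these values cannot decide whether same-numbered samples were handled together. The replicate block left 247 ends higher and 22 lower at an unadjusted p under 0.05.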
